A study of Mus musculus with 15 samples.

Results

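Transcripts of 10 genes of the BCL2 family were followed in polyadenylated RNA of CD8-selected lymph node cells: the pro-survival genes Bcl2, Bcl2l1 and Mcl1, the BH3-only death genes Bcl2l11, Bbc3, Bid, Bad and Bmf, and the pore-forming effectors Bax and Bak1. They were chosen by gene symbol, and each symbol matched 1 of the 21025 gene entries of the count files. BCL2 family proteins set whether the outer membrane of the mitochondrion is breached, the step that commits most cells to apoptosis. BCL2, BCL-XL (the product of Bcl2l1) and MCL1 hold BAX and BAK in check, and BH3-only proteins such as BIM (from Bcl2l11) and PUMA (from Bbc3) bind the survival proteins or activate the effectors. In T cells, interleukin 2, interleukin 7 and interleukin 15 act through JAK kinases and STAT5, and the level of BCL2 relative to BIM is a known determinant of how long resting and memory CD8 T cells live.

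The 15 libraries came from untreated 15-week-old mice, 5 from each of 3 genotypes. WT mice were C57BL/6N, and lymph nodes of 2 to 3 of them were pooled per WT sample. The names cS5Alo and cS5Ahi are not explained in the labels. From knowledge of the study they are taken to be transgenic lines with weaker (cS5Alo) or stronger (cS5Ahi) expression of hyperactive STAT5A throughout blood cells, so that any effect of the transgene need not arise in CD8 T cells alone. Cells were taken by magnetic positive selection for CD8. The labels do not say whether a cS5Alo or cS5Ahi sample was 1 mouse, and the p-values therefore speak only of the scatter among the samples, which may in part be technical.

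CPM below means the depth-scaled read count of a gene (TMM factors), and libraries held 12177642 to 33948416 reads in genes. Stat5a served as the label check. WT libraries held 71.4 to 95.7 CPM of it, cS5Alo libraries 100.3 to 117 and cS5Ahi libraries 404 to 635, without overlap. In cS5Alo against WT its log2 fold change was 0.38 and was not called by edgeR (adjusted p = 0.292 over all genes tested). Stat5b, its close relative, averaged 129, 124 and 121 CPM in WT, cS5Alo and cS5Ahi. Cd8a, the gene of the selection marker, averaged 2346, 2312 and 2450 CPM in WT, cS5Alo and cS5Ahi. Per the file names the cS5Ahi libraries shared a flow cell that held no WT or cS5Alo library, so flow cell and genotype cannot be told apart in either comparison with cS5Ahi. The description of cS5Ahi 1 names cS5Alo, but its title and genotype field say cS5Ahi, and its 436 CPM of Stat5a lay within the range of the other cS5Ahi libraries. In these mixed-cell samples, fewer cells of a type and less RNA per cell cannot be told apart.

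Promoter sequences of 3 members are shown because Bcl2 and Bcl2l11 stood higher together in cS5Ahi whereas Mcl1 was called in no comparison. Per kilobase of transcript Mcl1 was the most abundant member. Each run is the 250 bases before the annotated start, 5′ to 3′ on the strand of the gene, from RefSeq on build GRCm38.p6. The stretch of Bcl2 is chr1:106714291-106714540 on the minus strand, that of Bcl2l11 (the first of 2 annotated starts) chr2:128125788-128126037 on the plus strand, and that of Mcl1 chr3:95658471-95658720 on the plus strand. Capitals mark a match to the forkhead motif GTAAACA.
Bcl2: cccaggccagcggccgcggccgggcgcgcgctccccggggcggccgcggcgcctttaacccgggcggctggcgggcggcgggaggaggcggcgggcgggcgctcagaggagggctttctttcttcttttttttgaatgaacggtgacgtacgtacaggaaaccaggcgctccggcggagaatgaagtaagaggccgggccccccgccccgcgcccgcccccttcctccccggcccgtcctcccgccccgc
Bcl2l11: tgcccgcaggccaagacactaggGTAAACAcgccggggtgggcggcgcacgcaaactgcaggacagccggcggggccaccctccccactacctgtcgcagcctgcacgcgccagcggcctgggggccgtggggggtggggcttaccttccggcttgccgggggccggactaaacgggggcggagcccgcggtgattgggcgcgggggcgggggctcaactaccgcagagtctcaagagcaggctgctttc
Mcl1: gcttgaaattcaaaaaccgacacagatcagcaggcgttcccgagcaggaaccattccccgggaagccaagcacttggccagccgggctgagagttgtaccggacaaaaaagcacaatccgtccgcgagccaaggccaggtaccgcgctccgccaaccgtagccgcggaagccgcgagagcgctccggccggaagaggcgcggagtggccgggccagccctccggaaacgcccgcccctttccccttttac

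All 10 members matched the RefSeq promoter table, with 18 windows of 300 bases that run from 250 before to 50 after a start. The STAT motif TTCNNNGAA, which reads the same on both strands, was in none of the 18 windows and in 8.30% of the 32851 promoters of the table. GTAAACA, searched on both strands, was in 3.65% of all promoters and in 2 of the 18 windows, 1 of Bcl2l11 (first base 227 before the start) and 1 of Bbc3 (167 before it). With no STAT match in any window, no window held both motifs. A match or its lack describes these letters only. The Bcl2 window was 76% G and C with 44 CpG, the Bcl2l11 window 71% with 27 CpG and the Mcl1 window 65.7% with 33 CpG, against medians of 52.7% and 7 CpG over all promoters.

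In cS5Ahi against WT, 4 of the 10 members rose and none fell: Bcl2 (3.04-fold), Bcl2l1 (1.98-fold), Bcl2l11 (1.85-fold) and Bak1 (1.29-fold). All 10 members passed the filter on low counts, and by edgeR's quasi-likelihood test with Benjamini-Hochberg adjustment over 11979 genes, 14.1% of all genes were called, 6.88% as higher and 7.25% as lower. By role, 2 of 3 pro-survival members, 1 of 5 BH3-only members and 1 of 2 effectors rose. The effector, Bak1, passed narrowly (edgeR adjusted p = 0.0498) and lost its call in 19 of 22 alternative analyses. The median log2 fold change of the 10 was 0.31, beside 0.00 over all genes tested. The CPM ranges of Bcl2, Bcl2l1 and Bcl2l11 in cS5Ahi lay wholly above those in WT, which held for 5.98% of all genes, and no member lay wholly below (4.47% of all genes).

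Between cS5Alo and WT none of the 10 members was called, nor was any of the 11979 genes (0.0%) by edgeR, although 1356 genes had an unadjusted p under 0.05 and DESeq2 called 89. Of the members, Bcl2, Bmf and Bbc3 had an unadjusted p under 0.05 (0.00442, 0.00502 and 0.0356), and DESeq2 called none. The median log2 fold change of the 10 was -0.09, beside 0.00 over all genes. No member had separate CPM ranges in these 2 groups, where 0.993% of all genes lay above and 0.718% below.

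In cS5Ahi against cS5Alo, 4 members rose, namely Bcl2, Bcl2l1, Bcl2l11 and Bbc3, and none fell, beside 8.64% of all genes called, 4.87% as higher and 3.77% as lower. Ranges lay apart for the same 3 genes as against WT, beside 5.85% of all genes above and 4.9% below. DESeq2 called 5 members there, beside 1458 of all 11979 genes, and voom 6, beside 2546 of all genes. The median log2 fold change was 0.50 against -0.01 over all genes. The comparisons share groups (cS5Ahi in 2 of them, WT in 2 and cS5Alo in 2), so their values are set side by side and are not independent of each other.

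**Figure D1:**
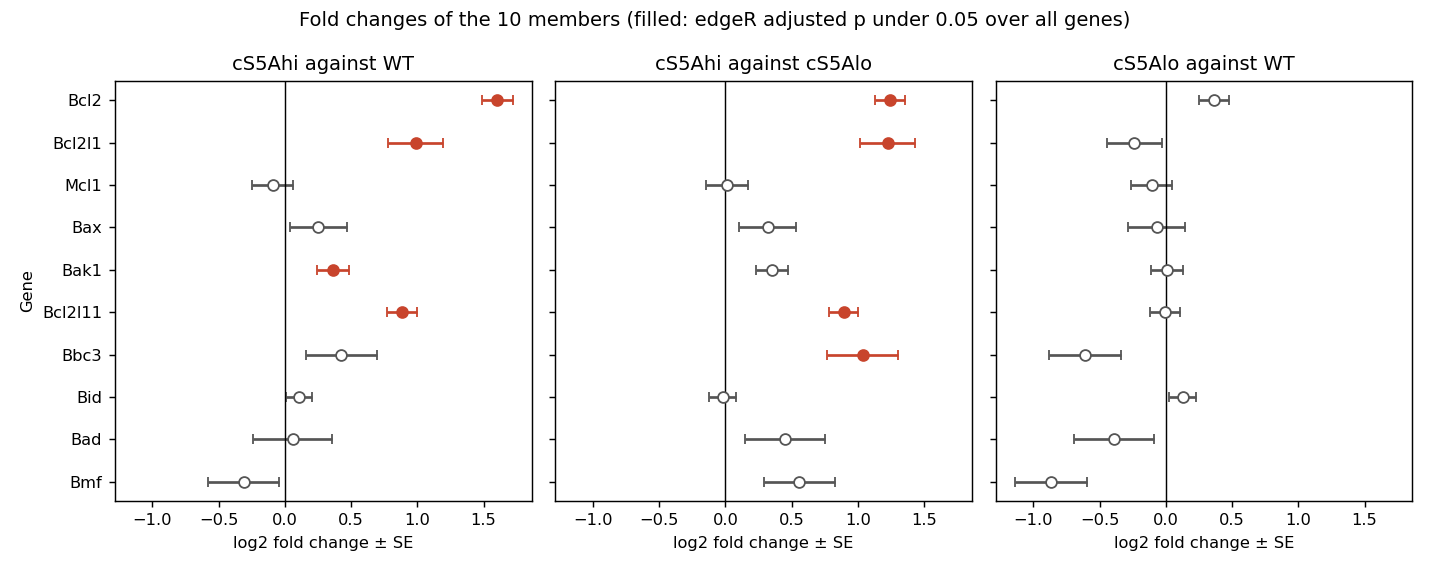
Log2 fold change ± SE (horizontal axis) of the 10 members (vertical axis) in the 3 comparisons of the edgeR fit, filled where the adjusted p over all genes was under 0.05. Bcl2, Bcl2l1 and Bcl2l11 are filled in both comparisons with cS5Ahi, Bak1 against WT alone and Bbc3 against cS5Alo alone, and no point is filled in cS5Alo against WT.

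Bcl2, the founding survival gene of the family, read 197, 232, 221, 170.2 and 228 CPM in WT 1 to 5. The cS5Alo libraries 1 to 5 held 286, 285, 297, 256 and 225 CPM, and the cS5Ahi libraries 639, 622, 542, 687 and 698 CPM. Every cS5Ahi library was well above every other library, and cS5Alo lay mostly above WT with 1 library, cS5Alo 5, inside the WT range. The means were 209.6 ± 25.8, 269.6 ± 29.4 and 637 ± 62.3 CPM (SD, n = 5 each). The log2 fold change was 1.60 ± 0.11 (SE, edgeR adjusted p = 1.78e-08) against WT and 1.24 ± 0.11 (adjusted p = 5.67e-07) against cS5Alo. In cS5Alo against WT it was 0.36 ± 0.11 and missed the threshold in edgeR (adjusted p = 0.290). Its adjusted p ranked 17 among the 11979 genes in cS5Ahi against WT.

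Bcl2l1, whose product BCL-XL guards activated lymphocytes, stood at 11.6, 15.1, 13.0, 18.2 and 26.5 CPM in WT 1 to 5. The cS5Alo libraries held 13.6, 14.3, 11.7, 10.9 and 21.4 CPM and the cS5Ahi libraries 28.4, 31.2, 39.2, 33.5 and 35.6 CPM. All cS5Ahi values were above all others, though the gap to WT 5 was narrow, and WT and cS5Alo overlapped. The gene rose by 0.99 ± 0.21 on the log2 scale against WT (edgeR adjusted p = 0.00267) and by 1.22 ± 0.21 against cS5Alo (0.000673). When a B cell score was added as a covariate, the change against WT was 1.03 with an adjusted p of 0.107 in edgeR, so the call was lost there and the value kept.

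Mcl1, a short-lived survival protein that T cells need at every stage, read 269, 455, 486, 510.0 and 323 CPM in WT 1 to 5. It read 348, 306, 390.2, 386 and 466 CPM in cS5Alo and 386, 424, 355, 393 and 356 CPM in cS5Ahi. The 3 groups overlapped, and WT spread the most. In cS5Ahi against WT the log2 fold change was -0.09, with an approximate 95% interval of -0.40 to 0.21 and an edgeR adjusted p of 0.765. The intervals of the other comparisons were -0.41 to 0.20 (cS5Alo against WT) and -0.29 to 0.32 (cS5Ahi against cS5Alo). A 3-fold rise of the kind seen for Bcl2 lies outside all of these intervals.

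Bcl2l11 encodes BIM, the BH3-only protein that removes lymphocytes when cytokine is withdrawn. WT 1 to 5 held 85.3, 101, 102, 83.2 and 92.3 CPM, and cS5Alo 1 to 5 held 95.8, 83.1, 79.5, 86.1 and 117 CPM. The cS5Ahi libraries held 180.1, 155, 157, 177 and 186 CPM, all above every WT and cS5Alo library, whereas WT and cS5Alo covered each other. The means were 92.7 ± 8.60, 92.2 ± 15.0 and 171 ± 14.3 CPM (SD, n = 5 each). This death gene therefore rose with the survival genes Bcl2 and Bcl2l1, by 0.88 ± 0.11 on the log2 scale against WT (edgeR adjusted p = 2.08e-05) and 0.89 ± 0.11 against cS5Alo (2.71e-05).

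Bbc3, which encodes PUMA, a p53 and FOXO target, was low: 5.72, 7.47, 12.1, 8.81 and 6.51 CPM in WT, 6.89, 8.14, 4.02, 3.44 and 3.82 in cS5Alo, and 6.78, 9.27, 12.4, 13.7 and 12.3 in cS5Ahi. All 3 groups overlapped, with 3 of 5 cS5Alo libraries below every WT and cS5Ahi library. It rose in cS5Ahi against cS5Alo by 1.04 ± 0.27 on the log2 scale (edgeR adjusted p = 0.0185), but not against WT (0.43 ± 0.27, 0.335). The call was lost without cS5Alo 3, cS5Alo 4 or cS5Ahi 4 (adjusted p 0.0578, 0.0573 and 0.0520).

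The other 3 BH3-only members were called by edgeR in no comparison, and limma voom called Bmf in cS5Ahi against cS5Alo (adjusted p = 0.0155). Bid, whose product links death receptors to the mitochondrion, was even: the WT libraries held 33.0 to 42.0 CPM, the cS5Alo libraries 36.8 to 42.5 and the cS5Ahi libraries 35.9 to 44.9. Its log2 fold change in cS5Ahi against WT was 0.10 with a 95% interval of -0.09 to 0.30. Bad, whose product is held inactive by survival kinases, covered 2.40 to 8.57, 2.85 to 6.10 and 4.49 to 9.05 CPM in the same order. The 34 to 208 reads behind each value of Bad left a 95% interval of -0.53 to 0.65 for cS5Ahi against WT. Bmf, a BH3-only gene expressed in lymphocytes, read 8.88, 3.59, 5.15, 11.6 and 8.45 CPM in WT, 3.54, 3.07, 3.87, 4.48 and 5.64 in cS5Alo, and 6.54, 7.63, 4.50, 5.50 and 6.00 in cS5Ahi. Its log2 fold change in cS5Alo against WT was -0.87 ± 0.27, the greatest in size of the 10 members there, with an edgeR adjusted p of 0.290 and overlapping ranges.

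Among the effectors, Bak1 read 61.6, 64.9, 57.1, 69.2 and 83.2 CPM in WT, 80.0, 71.0, 57.2, 62.5 and 68.1 in cS5Alo, and 75.8, 81.2, 98.8, 95.0 and 81.8 in cS5Ahi. The cS5Ahi values were mostly higher but overlapped with WT 5 and with cS5Alo 1. The rise against WT was 0.36 ± 0.12 on the log2 scale at an edgeR adjusted p of 0.0498, and it was lost in 19 of 22 alternative analyses (adjusted p up to 0.319), among them those without WT 1, 2, 3 or 4 or without cS5Ahi 2, 3, 4 or 5. Against cS5Alo it was 0.35 ± 0.12 (adjusted p = 0.0791 in edgeR, 0.0439 in DESeq2). Bax covered 24.4 to 48.4 CPM among WT, 19.9 to 39.1 among cS5Alo and 31.3 to 61.9 among cS5Ahi libraries, with overlap throughout and a log2 fold change of 0.25 ± 0.22 in cS5Ahi against WT (adjusted p = 0.512).

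**Figure D2:**
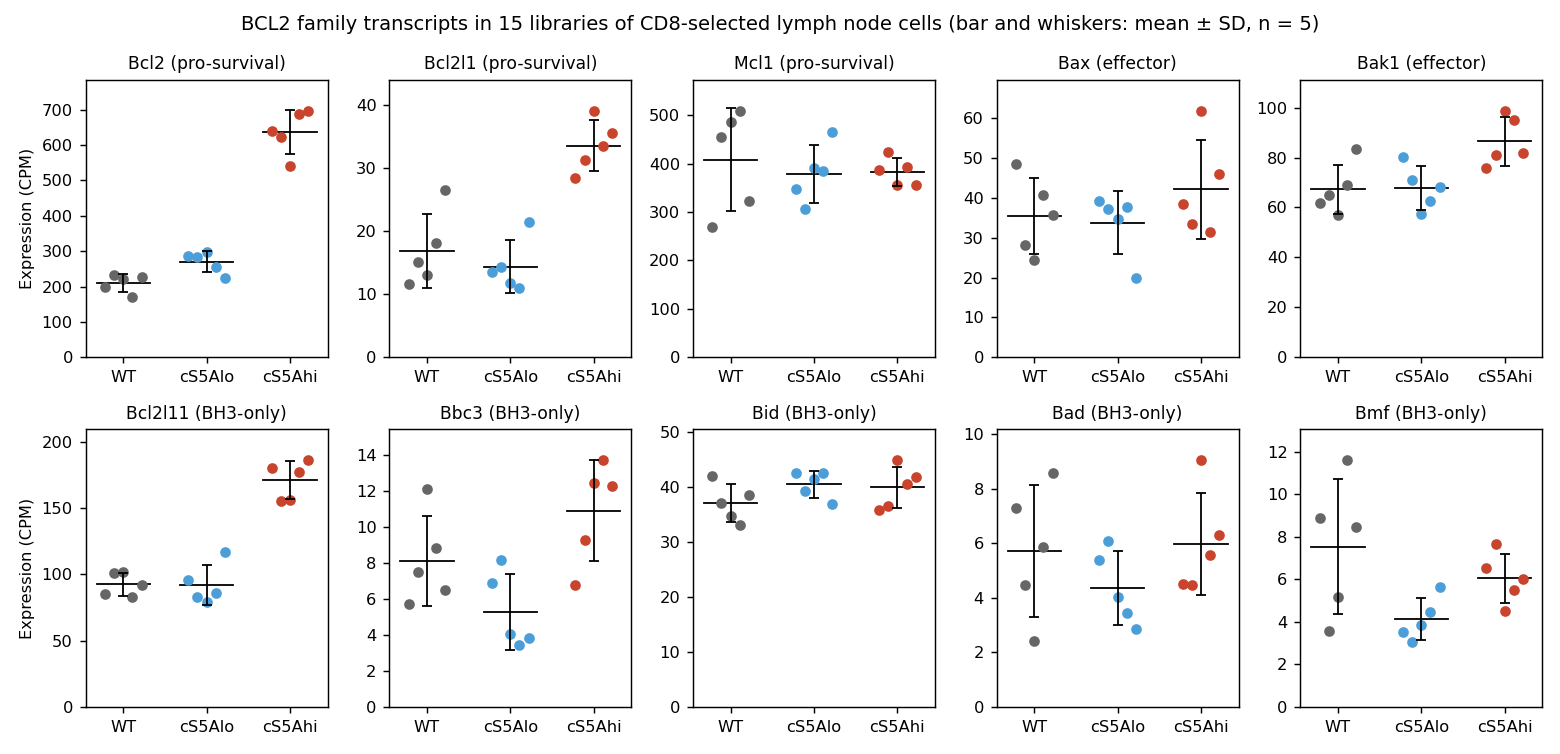
CPM (vertical axis, from 0) of each member in every library by genotype (horizontal axis), with bars and whiskers at mean ± SD (n = 5). The cS5Ahi points of Bcl2, Bcl2l1 and Bcl2l11 stand clear of the other groups, and those of the other 7 members overlap with them.

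Levels were compared between genes per kilobase of transcript, as CPM per kb. In WT the order of mean level was Mcl1 (119 ± 31.1), Bax (40.9 ± 11.1), Bcl2 (29.1 ± 3.58), Bak1 (28.2 ± 4.18), Bcl2l11 (18.4 ± 1.71), Bid (16.9 ± 1.59), Bcl2l1 (6.99 ± 2.45), Bbc3 (4.48 ± 1.37), Bad (3.94 ± 1.66) and Bmf (1.62 ± 0.684; SD, n = 5 each). Several neighbours in that order, such as Bcl2 with Bak1, Bcl2l11 with Bid, and Bbc3 with Bad, differed by less than their SD. Per kb, Mcl1 was the most abundant member in all 15 libraries. Before division by length, the cS5Ahi libraries held 542 to 698 CPM of Bcl2 and 355 to 424 of Mcl1. The order of Bcl2 and Mcl1 in cS5Ahi thus rests on the lengths taken. In cS5Ahi, Bcl2 stood second at 88.6 ± 8.66 CPM per kb, after Mcl1 at 112 ± 8.37, and ahead of Bax at 48.7 ± 14.3.

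Summed per kb, the 10 members reached 270.1 ± 22.4 in WT, 265 ± 8.92 in cS5Alo and 363 ± 10.8 in cS5Ahi. Within that sum the share of Bcl2 was 10.9, 14.2 and 24.4%, and the share of Mcl1 was 43.8, 41.7 and 30.9%. The share of the 3 pro-survival members together was close to level, at 57.2 ± 7.50, 58.1 ± 4.58 and 59.2 ± 4.26% (SD, n = 5). BH3-only members held 16.9, 16.4 and 17.5% and effectors 25.8, 25.4 and 23.3%. The rise in survival transcripts in cS5Ahi was thus accompanied by more death-gene transcripts. Between WT and cS5Ahi the pro-survival sum went from 156 to 215 CPM per kb and the BH3-only sum from 45.4 to 63.6. Each sum moved mostly with a single gene. Bcl2 went from 29.1 to 88.6, Bcl2l1 from 6.99 to 13.9 and Mcl1 from 119 to 112. Bcl2l11 went from 18.4 to 34.0, Bbc3 from 4.48 to 6.00, Bid from 16.9 to 18.2, Bad from 3.94 to 4.12 and Bmf from 1.62 to 1.30. These sums are given as descriptions, without a test.

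**Figure D3:**
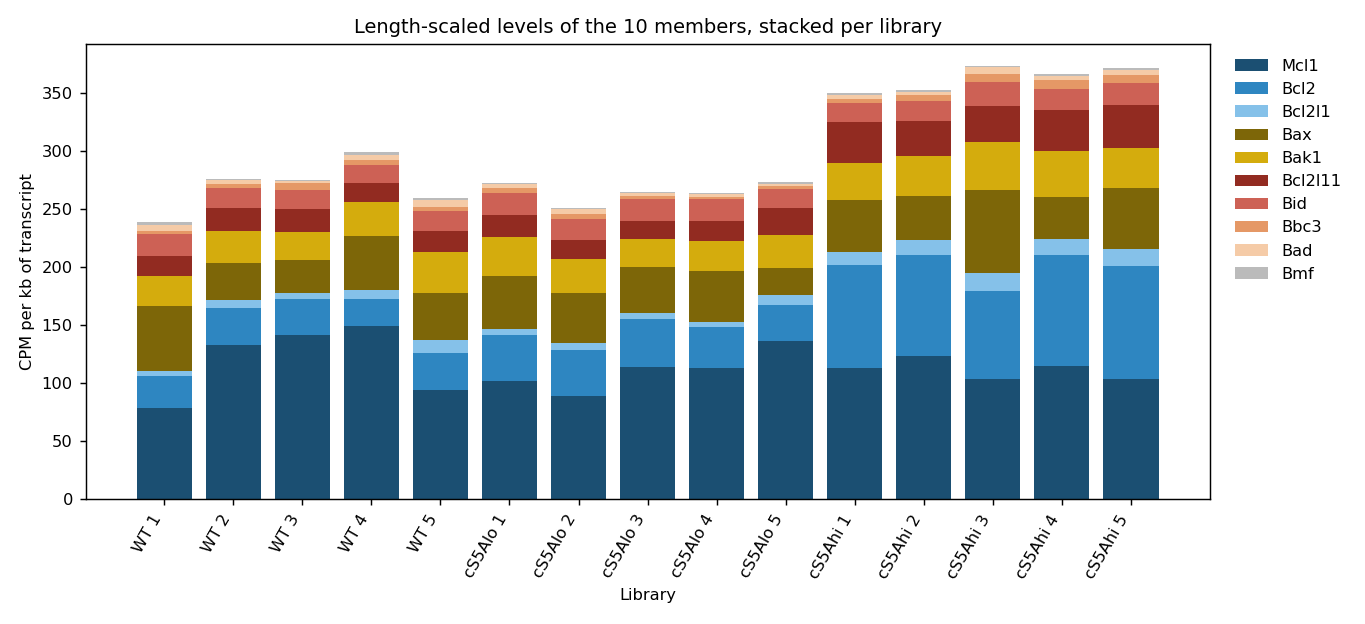
CPM per kb of transcript (vertical axis) of the 10 members stacked in each of the 15 libraries (horizontal axis), blue for pro-survival, yellow-brown for effectors, and red, orange and grey for BH3-only. The cS5Ahi stacks are taller (350.1 to 374 against 239 to 299 in WT), with a wider Bcl2 band.

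The balance of survival to death transcripts was then taken within each library, as the log2 ratio of the counts of 1 pro-survival and 1 death member, in which library scaling cancels. The 3 by 7 members gave 21 ratios and, over 3 comparisons, 63 two-sided exact permutation tests, adjusted together by Benjamini-Hochberg. With 5 libraries against 5 the smallest p is 0.00794, which is 0.0333 after adjustment here. In cS5Ahi against WT 11 ratios were higher and 1 was lower, in cS5Alo against WT 1 was higher, and in cS5Ahi against cS5Alo 6 were higher and 2 lower. A ratio moves with either of its genes, so the same ratio was taken of each pro-survival gene to every other gene tested. Those ratios were compared by their library ranges only, without the permutation test.

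In cS5Ahi against WT the library ranges of 7 of the 21 ratios lay wholly above and 1 wholly below. Over all genes tested, ratios of Bcl2 lay above in 83.2% of genes, those of Bcl2l1 in 41.0% above and 0.776% below, and those of Mcl1 in 2.88% above and 3.38% below. In cS5Alo against WT 1 ratio lay above, where over all genes Bcl2 ratios gave 5.39% above and 0.0417% below, Bcl2l1 ratios 0.0751% and 0.134%, and Mcl1 ratios 0.167% and 0.276%. In cS5Ahi against cS5Alo 4 ratios lay above and 2 below, where over all genes Bcl2 ratios gave 82.3% above and 0.66% below, Bcl2l1 ratios 70.1% and 0.584%, and Mcl1 ratios 3.61% and 4.43%. Of the 7 ratios of Bcl2 to death members, 5 lay wholly above in cS5Ahi against WT (Bad and Bax overlapped) and 2, to Bid and Bak1, in cS5Ahi against cS5Alo. By the test all 7 were higher against WT, and 4 (Bid, Bmf, Bax and Bak1) against cS5Alo. The test was not run over all genes, so these counts have no share to stand beside. By ranges a higher Bcl2 ratio in cS5Ahi was the common case, in 83.2% of genes against WT and 82.3% against cS5Alo.

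Bcl2 to Bcl2l11, the pair of BCL2 and BIM, was 1.21, 1.20, 1.12, 1.03 and 1.30 on the log2 scale in WT 1 to 5. In cS5Alo the values were 1.58, 1.78, 1.90, 1.57 and 0.94, and the cS5Ahi libraries gave 1.83, 2.00, 1.79, 1.95 and 1.91. The cS5Ahi libraries lay above all WT libraries, and cS5Alo spread from below WT, in cS5Alo 5, to within the cS5Ahi range. The difference between cS5Ahi and WT was 0.72 (exact permutation p = 0.00794, adjusted 0.0333), smaller than the 1.60 of Bcl2 itself, with Bcl2l11 having risen too. Only 1.09% of all genes tested had a ratio to Bcl2l11 wholly higher in cS5Ahi than in WT, and 59.0% had one wholly lower. The difference was 0.38 between cS5Alo and WT (exact permutation p = 0.0476, adjusted 0.0968) and 0.34 between cS5Ahi and cS5Alo (0.0317, adjusted 0.08), neither of which passed. Each passed with 1 library left out. Without cS5Alo 5 the adjusted exact permutation p was 0.03125 for cS5Alo against WT. Without cS5Alo 3 it was 0.0333 for cS5Ahi against cS5Alo.

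Mcl1 to Bcl2l11 went the other way. It was 1.66, 2.17, 2.25, 2.62 and 1.81 in WT and 1.86, 1.88, 2.30, 2.16 and 2.00 in cS5Alo, against 1.10, 1.45, 1.18, 1.15 and 0.93 in cS5Ahi. All cS5Ahi libraries lay below all others. The difference was -0.94 against WT and -0.88 against cS5Alo (exact permutation p = 0.00794, adjusted 0.0333, for both). As above, a lower ratio to Bcl2l11 in cS5Ahi was the common case, in 59.0% of genes against WT and 61.2% against cS5Alo.

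Bcl2l1 to Bcl2l11 averaged -2.51 ± 0.50 in WT, -2.71 ± 0.22 in cS5Alo and -2.35 ± 0.24 in cS5Ahi (SD, n = 5). The groups overlapped, and cS5Ahi differed from WT by 0.16 (exact permutation p = 0.524, adjusted 0.647), as both genes had risen. Bcl2 to Bbc3 was the 1 ratio called in cS5Alo against WT, at 5.75 ± 0.49 against 4.73 ± 0.46. All 5 cS5Alo libraries lay above all 5 WT libraries, by the narrow margin of 5.1237 against 5.1228, with a difference of 1.03 (exact permutation p = 0.00794, adjusted 0.0333). The corresponding background was the 5.39% of genes given above.

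The ratio calls changed, with some lost and some gained, when single libraries were left out. A smaller group also changes the steps of the exact p, so a lost call need not mean a smaller difference. Without cS5Ahi 1, 2, 4 or 5 the smallest adjusted p in both comparisons with cS5Ahi was 0.05 to 0.0625 and no ratio was called, while 7 or 8 ratios of cS5Ahi to WT kept ranges wholly above and 1 wholly below. Without cS5Ahi 3, 5 ratios were called against WT, and without 1 WT library 8 to 12. The call of Bcl2 to Bbc3 in cS5Alo against WT was lost without WT 1, 2, 4 or 5.

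**Figure D4:**
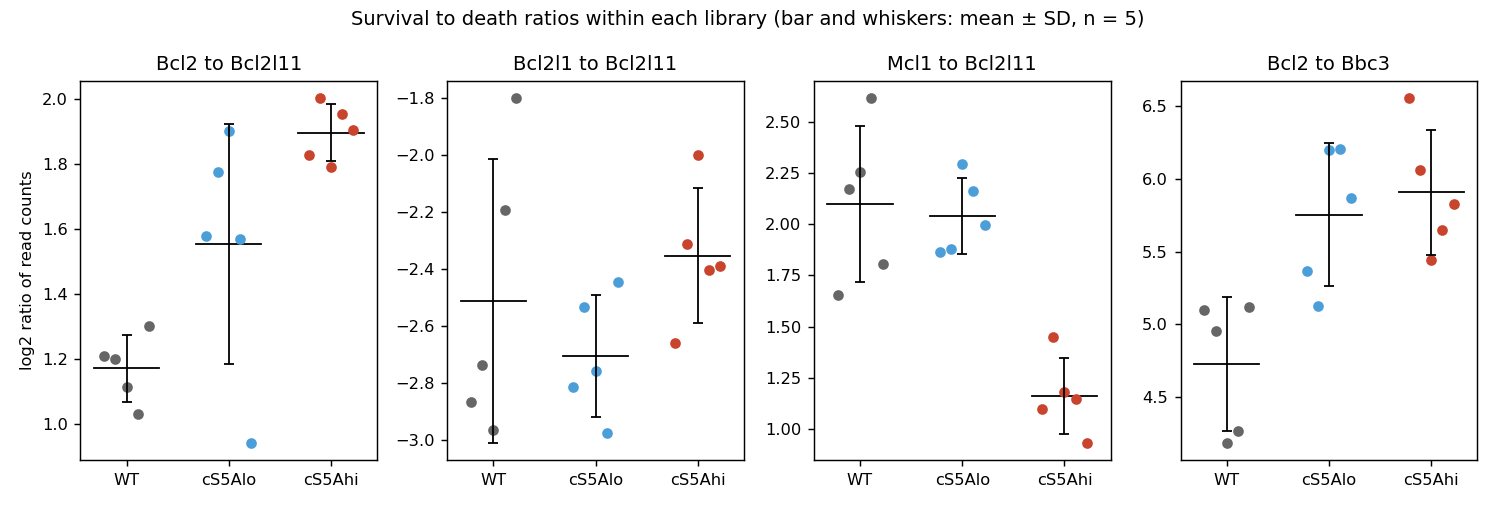
Log2 ratio of counts (vertical axes, not starting at 0) within each library for 4 pairs by genotype (horizontal axis), with mean ± SD (n = 5). Bcl2 to Bcl2l11 is higher in cS5Ahi than in WT, Mcl1 to Bcl2l11 is lower in cS5Ahi, and Bcl2l1 to Bcl2l11 overlaps.

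The rest of the pathway was read from 6 gene lists, ordered from the cytokine input to the caspases. Their counts stand beside the 6.88% of all genes called higher and 7.25% called lower in cS5Ahi against WT, and 4.87% and 3.77% against cS5Alo. Of 19 genes for cytokine receptors and JAK-STAT5 signalling, 7 rose and 1 fell in cS5Ahi against WT, with a median log2 fold change of 0.34. The risers included Stat5a itself, the receptor chains Il2ra (14.7 ± 3.38 to 62.4 ± 7.52 CPM, log2 fold change 2.09) and Il2rb (325 ± 62.2 to 825 ± 60.1, 1.35), and the STAT5 target kinase Pim1 (15.4 ± 3.13 to 43.6 ± 2.65, 1.50; SD, n = 5 each). Their edgeR adjusted p-values were 1.23e-08, 1.8e-06 and 1.8e-06. Il4ra, Cish and Socs1 were the other 3 that rose, and Il6st, the shared receptor chain of interleukin 6, fell. Il7r, which carries the main survival signal of resting T cells, was not called and averaged 976, 893 and 1066 CPM in WT, cS5Alo and cS5Ahi.

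The list of transcription factors known to act on the members also held Cdkn1a and Mdm2, which are not transcription factors. Of its 20 tested genes, 3 rose and 1 fell in cS5Ahi against WT, with a median of -0.08. Myc, which drives growth and can prime cells for death, rose from 178 ± 36.2 to 262 ± 29.4 CPM (log2 fold change 0.56, edgeR adjusted p = 0.00502). Id2, a factor of effector and memory CD8 T cells, rose by 0.64 and the cell cycle factor E2f1 by 1.50 on the log2 scale, while Nfkb2 fell by 0.51 (adjusted p = 0.00533, 0.00664 and 0.0302). Against cS5Alo, Myc, Id2, E2f1 and the p53 target Cdkn1a rose and none fell. The call of Id2 against cS5Alo was kept in all 22 alternative analyses, whereas that of Myc was lost in 9 of 22 alternative analyses (without cS5Alo 1, 2 or 3 or cS5Ahi 1, 4 or 5 among them), that of E2f1 in 8 (without cS5Alo 1, 3 or 4 or cS5Ahi 1 or 3) and that of Cdkn1a in 9 (without cS5Alo 1, 3, 4 or 5 or cS5Ahi 1, 3, 4 or 5), with adjusted p up to 0.246, 0.0934 and 0.101. Foxo1 and Foxo3, which activate Bcl2l11 and Bbc3 in other settings, were not called, with log2 fold changes of -0.15 and -0.02 in cS5Ahi against WT.

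Of 14 other BCL2 family genes, 7 passed the low-count filter and 1 of these fell in cS5Ahi against WT. That was Bcl2a1b, from 6.69 ± 2.13 to 2.74 ± 0.251 CPM (log2 fold change -1.28, edgeR adjusted p = 0.00137), whose reads may be shared with its near-identical copies and whose call was lost with a B cell or salivary score as a covariate. Pmaip1, the gene of the BH3-only protein NOXA, was not called, at 8.17, 6.33 and 9.61 CPM. Among 22 binding partners and modifiers of BCL2 proteins, edgeR called none in any comparison. In cS5Ahi against WT 3 of these 22 had an unadjusted p under 0.05, beside 3186 of all 11979 genes. Neither DESeq2 nor limma voom called any of the 22 there, beside 2127 and 1404 of all genes. In cS5Ahi against cS5Alo 6 had an unadjusted p under 0.05, with 1 called by DESeq2 and 7 by voom. Over all 11979 genes the same counts were 2582, 1458 and 2546. The most abundant of them, the 14-3-3 gene Ywhaz and the MCL1 ubiquitin ligase Huwe1, averaged 983 and 783 CPM in WT and 892 and 790 in cS5Ahi.

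Of 16 genes of the apoptosome, caspases and their inhibitors, none rose and 2 fell in cS5Ahi against WT. These were the inhibitor of apoptosis Birc3 (81.5 ± 13.9 to 58.0 ± 3.65 CPM, log2 fold change -0.49, edgeR adjusted p = 0.0114) and the executioner caspase Casp6 (19.9 ± 3.02 CPM in WT, log2 fold change -0.50, 0.0171). Of 11 death receptor genes, 3 rose and 1 fell. Fasl, the ligand with which cytotoxic cells kill, rose from 2.08 ± 1.51 to 29.3 ± 3.79 CPM (log2 fold change 3.79, adjusted p = 1.21e-05), and averaged 4.05 ± 0.932 in cS5Alo. Tnfsf10, the gene of TRAIL, rose by 0.61 and Tradd, an adaptor of the TNF receptor, by 0.46 on the log2 scale, while Cflar, the inhibitor of caspase 8 activation, fell by 0.47 (adjusted p = 0.0171, 0.0337 and 0.00229). The calls of Casp6, Birc3, Tnfsf10, Myc and E2f1 against WT were lost with a B cell score or a salivary score as a covariate and without WT 3, WT 4 and cS5Ahi 4 together. Over all 22 alternatives their log2 fold changes were -0.59 to -0.24, -0.57 to -0.34, 0.33 to 0.72, 0.38 to 0.68 and 1.32 to 1.89. That of Id2 was lost with the salivary score and without those 3 libraries (0.41 to 0.83 over all 22), and that of Cflar with the salivary score. The call of Tradd was lost in 14 of 22 alternative analyses (adjusted p up to 0.249), among them those without WT 1, 2 or 4 or without cS5Ahi 2, 3, 4 or 5, and that of Nfkb2 in 10 (up to 0.808), among them those without WT 1 or 4 or without cS5Ahi 1, 2 or 4.

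In cS5Ahi against cS5Alo, the cytokine list held 7 genes that rose and 1 that fell. The transcription factor list held 4 (Cdkn1a among them) and 0, the death receptors 1 (Fasl) and 0, and the apoptosome list 0 and 1 (Birc3). The call of Birc3 was lost without cS5Alo 3 and with the B cell score (edgeR adjusted p up to 0.197). The other BCL2 family genes held none, with 3 of 7 at an unadjusted p under 0.05 and 2 called each by DESeq2 and voom. Over all 11979 genes the same counts were 2582, 1458 and 2546. In cS5Alo against WT no gene of the 6 lists was called by edgeR, DESeq2 or voom. At an unadjusted p under 0.05 stood 4 of 19 cytokine genes, 3 of 11 death receptor genes and 2 of 20 on the transcription factor list. So did 2 of 16 apoptosome genes, 1 of 22 partners and 0 of 7 other family genes, beside 1356 of all 11979 genes.

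**Figure D5:**
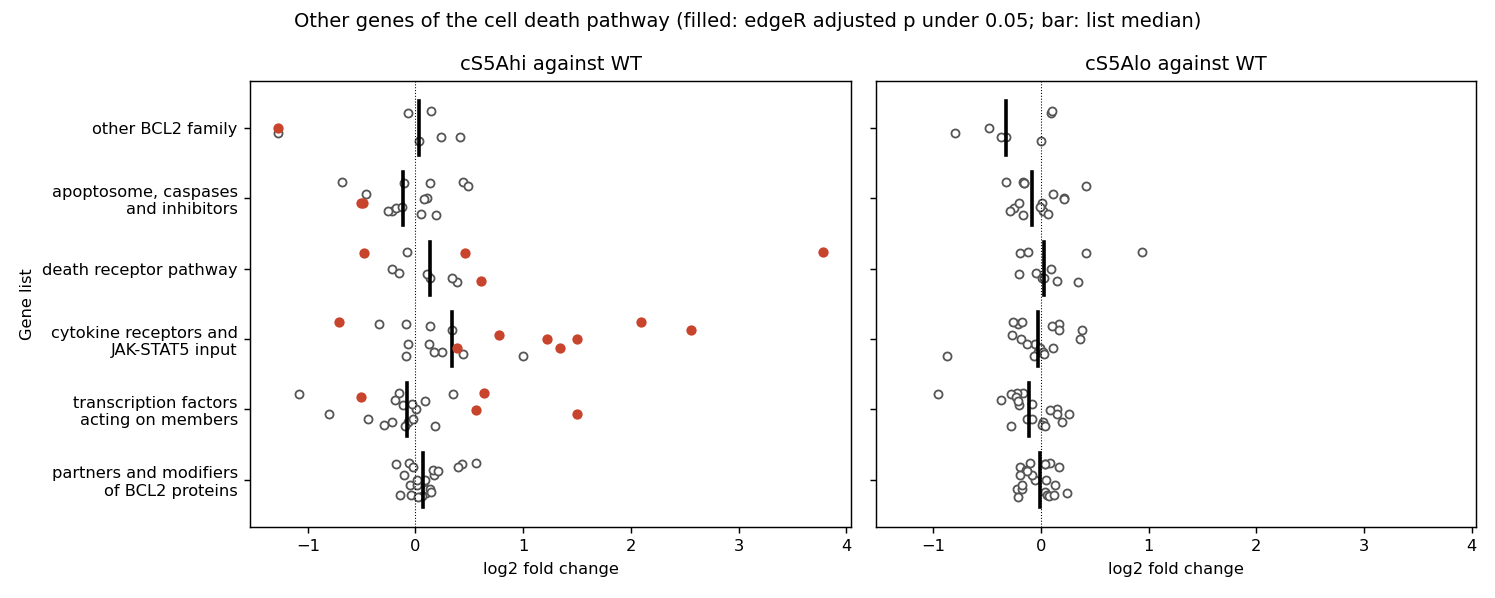
Log2 fold change (horizontal axis) of each tested gene in the 6 lists (vertical axis) for cS5Ahi against WT (left) and cS5Alo against WT (right), filled where the edgeR adjusted p was under 0.05, with a bar at the list median. Fasl lies far to the right at 3.79, the cytokine list holds 8 filled points on the left, the other lists between 0 and 4, and the right panel none.

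Markers of cell types differed between the groups along with these members. Of 12 memory CD8 T cell markers, 11 rose in cS5Ahi against WT and against cS5Alo, with summed levels of 1442 to 2583 CPM among WT, 1856 to 2479 among cS5Alo and 5308 to 9147 among cS5Ahi libraries. Of 10 naive T cell markers, 4 fell against WT (WT libraries 5615 to 6501 CPM, cS5Ahi libraries 4369 to 5872). Of 14 B cell markers, 10 fell (137 to 418, 218 to 334 and 124 to 201 CPM in WT, cS5Alo and cS5Ahi), and all 14 were counted in every library. Of 6 natural killer cell markers, 4 rose and none fell (summed 15.8 to 65.1 CPM over WT, 19.2 to 39.1 over cS5Alo and 113 to 323 over cS5Ahi libraries), and Ncr1, the most specific of them, averaged 0.975 CPM in WT and 0.268 in cS5Ahi. The part that memory and naive cells, and cells with natural killer receptors, have in the changes of the members was not tested.

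Of the other marker lists, 6 of 9 dendritic cell markers, 2 of 6 CD4 T cell markers, 5 of 8 tested salivary gland markers and 2 of 4 tested stromal markers fell in cS5Ahi against WT, and 0 of 9 macrophage markers were called. Of 7 CD8 T cell markers, Gzmm, a granzyme gene, rose against WT (11.4 ± 9.58 to 164 ± 41.2 CPM, log2 fold change 3.83) and none fell, while against cS5Alo Gzmm rose and the T cell receptor chains Cd3d and Cd3g fell. The summed CD8 T cell markers covered 5900 to 7375 CPM among WT, 6351 to 6944 among cS5Alo and 6595 to 8131 among cS5Ahi libraries. Their mean log2 CPM was wholly higher in cS5Ahi (9.15 to 9.43) than in WT (8.41 to 8.94). That mean gives each of the 7 genes the same weight, Gzmm included, and was not taken without Gzmm. The salivary sum ran from 428 to 4330 CPM over WT, 55.2 to 3387 over cS5Alo and 37.3 to 572 over cS5Ahi libraries, with Smr2 at 0 in every library and Smgc at 0 in every cS5Ahi library. In the fit with the B cell score, Bcl2 and Bcl2l11 were still higher in cS5Ahi than in WT by 1.45 (edgeR adjusted p = 4.96e-05) and 0.69 (0.0229) on the log2 scale. With the salivary score these were 1.39 (9.41e-06) and 0.93 (0.00165), and Bcl2l1 stood at 1.13 (0.0249). Without WT 3, WT 4 and cS5Ahi 4, the libraries with more than 36% of reads outside genes, the changes of Bcl2, Bcl2l1 and Bcl2l11 were 1.50, 0.91 and 0.86 (adjusted p = 3.46e-06, 0.0427 and 0.00107).

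The genes whose levels ran most alike with a member over the 15 libraries were sought among 7939 genes of at least 10 CPM, by Pearson's r of log2 CPM, as a description without a test. For Bcl2 these were Il18r1 (0.99), Gnptab (0.98) and Stat5a (0.97), for Bcl2l11 Nefh (0.98), N4bp1 (0.98) and Pogk (0.96), for Bcl2l1 Tbc1d22b (0.93), Rmi2 (0.92) and Socs1 (0.91), and for Bak1 Lfng (0.94), Atp5d (0.93) and Socs1 (0.91). Il18r1 is also on the list of memory CD8 T cell markers counted above, and the part of memory cells in its likeness to Bcl2 was not tested. With each genotype centred on its mean, r with Bcl2 was 0.76 for Il18r1, 0.76 for Gnptab and 0.33 for Stat5a. The centred values were 0.83, 0.78 and 0.53 for Nefh, N4bp1 and Pogk with Bcl2l11, 0.72, 0.75 and 0.78 for Tbc1d22b, Rmi2 and Socs1 with Bcl2l1, and 0.90, 0.91 and 0.85 for Lfng, Atp5d and Socs1 with Bak1. The drop on centring was thus widest for Stat5a with Bcl2 and narrow for the genes named with Bak1.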

How the data were processed

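Polyadenylated RNA of 15 CD8-selected lymph node samples was sequenced, 5 each of WT, cS5Alo and cS5Ahi, grouped by genotype and title. The deposited files hold whole-number read counts per gene, not normalised by the authors. HTSeq 0.6.1p1, TopHat 1.4.1 and cutadapt on build mm9 are named in the submitters' processing notes; neither a cutadapt version nor a strand setting was given in the sources used here. The 5 summary entries of each file were left out (reads outside genes 23.0 to 40.8%, ambiguous reads 0.533 to 0.687%). Symbols were matched by accession to RefSeq GRCm38.p6 for 20661 of 21025 entries.

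Counts were TMM-scaled and tested with edgeR 4.0.16 (R 4.3.3) in 1 robust quasi-likelihood fit over all libraries, after filterByExpr (minimum count 10, minimum total 15; 11979 genes left; common biological coefficient of variation 0.234). Calls required an adjusted p (Benjamini-Hochberg, over all genes tested) under 0.05. The 95% intervals are approximate: they take the SE with normal quantiles and are narrower than the edgeR test implies. For Bmf in cS5Ahi against cS5Alo the interval was 0.03 to 1.09, although the unadjusted edgeR p was 0.0533. Log2 CPM used a prior count of 2, and ratios added 0.5 to each count. Lengths are those of the longest GENCODE M21 transcript with an accession of the entry. The fit was tested on simulated counts. Among 30 within-group library pairs, chi-square divided by its degrees of freedom was 10.4 to 119, so none of these pairs differed by sampling noise alone. Pairs across genotypes were not checked.

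The members and lists were chosen with earlier results of these data known. The ratio backgrounds, shares and motif search are descriptions added after the counts were seen. Named were all 10 members, from each list up to 4 called genes of smallest adjusted p or up to 2 of highest CPM where none was called, Stat5a and Stat5b, and for called members of at least 10 CPM the 3 genes of highest r. Names outside this rule (Il4ra, Cish, Socs1, Il6st, Il7r, Foxo1, Foxo3, Pmaip1 and marker genes) were added after their values were seen. Alternatives were other scaling factors and filters, DESeq2 1.42.0, limma 3.58.1 voom, 10-library fits, a replicate block, marker scores as covariates and leaving out libraries. Replicate numbers did not pair the samples.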

Additional observations from a re-analysis of the deposited data

Results flagged for a closer look

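Bax in cS5Alo 5 stood at 19.9 CPM, below the 34.8 to 39.1 CPM of the other 4 cS5Alo libraries. The gap to its nearest neighbour was 0.773 of the range of the group, above the critical value of 0.71 for 5 samples in Dixon's test. It was the only such value among 30 groups of 5 (10 members in 3 genotypes), where chance alone marks about 1 in 20. Without that library, cS5Alo against WT had 4 genes called and no member. Over all genes, too, cS5Alo 5 stood apart from the other 4 cS5Alo libraries. Chi-square divided by its degrees of freedom was 63.9 to 106 in its pairs with them and 10.4 to 37.7 among them. The WT pairs gave 23.8 to 119 and the cS5Ahi pairs 41.4 to 101.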

How the results depend on the processing

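Bcl2 and Bcl2l11 kept their calls in both comparisons with cS5Ahi in all 22 alternatives, at log2 fold changes of 1.39 to 1.66 and 0.69 to 0.93 against WT and 1.11 to 1.30 and 0.73 to 0.99 against cS5Alo. Bcl2l1 kept its call against cS5Alo in all 22. In cS5Ahi against WT, genes called numbered 421 with a B cell score, 570 with a salivary score and 1081 without WT 3, WT 4 and cS5Ahi 4, beside 1692. With the B cell score 2 members were called. In cS5Ahi against cS5Alo they numbered 2546 with voom and 421 with a B cell score, beside 1035. In cS5Alo against WT DESeq2 called 89 genes, beside 0. Without WT 3, WT 4 and cS5Ahi 4, 0 ratios were called in each comparison (smallest adjusted p 0.125 to 0.141). With so few libraries the smallest exact permutation p in cS5Ahi against WT was 0.0286, beside 0.00794 with all libraries. As the comparisons were adjusted together, 0 calls there say little about the ratios. In cS5Ahi against WT 10 ratios then lay wholly above and 1 wholly below, beside 7 and 1 with all libraries. Leaving out 1 library at a time gave 1247 to 1905, 0 to 4 and 769 to 1121 genes called (cS5Ahi against WT, cS5Alo against WT, cS5Ahi against cS5Alo), 3 to 4, 0 to 0 and 3 to 4 members, and 0 to 12, 0 to 2 and 0 to 9 ratios. Without scaling factors 603 genes were higher and 1177 lower in cS5Ahi against WT, beside 824 and 868, and 484 and 571 against cS5Alo, beside 583 and 452. The causes were not tested. The low counts of Bad, Bmf and Bbc3 limit what can be seen there.

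With the replicate number as a block, 1252, 0 and 727 genes and 3, 0 and 3 members were called. Bak1 (adjusted p = 0.105 against WT) and Bbc3 (0.0592 against cS5Alo) were lost. Deviations of same-numbered libraries correlated at -0.318 to 0.198, and none of the 15 libraries correlated best with its own number, so the block is not a pairing.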
